A study of Sus scrofa with 48 samples.

Results

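Drug-metabolizing enzymes and a drug efflux pump were followed in paired fat and liver of young female pigs after fasting or feeding. The 7 genes were taken by symbol: CYP2B22, CYP2C36, FMO1, EPHX1, SULT1A3, SULT2A1 and ABCB1, out of 6765 genes that the array annotation names by a probe set of their own (a probe set is a group of short probes designed against one transcript). They are read by 10 probe sets, of which CYP2C36 has 2 and ABCB1 has 3. The genes were chosen by their measured log2 differences between fasted and fed gilts in fat and in liver, so those fasting differences are given below as a description and without a test. The name under which they were gathered, enzymes with opposed responses in the 2 tissues, fitted some of them. CYP2B22, FMO1 and SULT1A3 were higher in fasted fat and lower in fasted liver on average. For SULT1A3 the liver groups overlapped and the lower mean was that of N298. SULT2A1 had the reverse signs, but in fat every fasted array fell inside the fed range (log2 difference −0.52, standard error 0.30). EPHX1 was lower in both fasted tissues, probe set 1 of ABCB1 was higher in both, and the 2 probe sets of CYP2C36 had opposite signs in liver. The manufacturer's identifiers mark probe set 2 of CYP2C36 and probe set 3 of ABCB1 as antisense designs on a record that also carries a sense design, so these may read the opposite strand.

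The animals were 24 Yorkshire gilts, 6 months old, bred for low residual feed intake (they eat less than their growth and size predict) and homozygous for one of 2 forms of the melanocortin 4 receptor gene MC4R, a receptor of the brain that restrains appetite. The N298 form was carried by 12 gilts and the wild-type D298 form by 12. Within each genotype 6 gilts had been fasted for 3 days and 6 had eaten ad libitum for 3 days. RNA of fat and of liver went onto separate Affymetrix porcine arrays, which gives 48 arrays in 8 groups of 6: N298 fasted, N298 fed, D298 fasted and D298 fed in fat, and the same in liver. A fat and a liver array were taken as one gilt where genotype, feeding and replicate number matched, which the labels do not state, and 18 of 24 liver arrays had their highest correlation within the group with the matched fat array. Nothing in the labels limits the arrays to one cell type, so a lower signal in these bulk tissues cannot be told apart between fewer cells of a type and less RNA per cell.

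Clearance of drugs and other foreign compounds is classically divided into steps. Phase 1 enzymes (cytochromes P450, flavin monooxygenases, epoxide hydrolases) oxidize, reduce or hydrolyse a compound, phase 2 enzymes (sulfotransferases, glucuronosyltransferases, glutathione transferases) attach a polar group, and membrane pumps carry the product out of the cell. The liver is the main site of this clearance, and in human and rodent liver many of the genes are switched on through the nuclear receptors CAR and PXR, which also respond to energy state. Several of the same enzymes handle the body's own steroids, catecholamines and lipids.

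Signals are linear MAS5 units as deposited, scaled by array, and differences are on the log2 scale, where 1 is a doubling, given with their standard error (SE). The array medians ran from 159 to 192 in fat and from 122 to 149 in liver. The tissue labels held against their markers: the fat cell hormone ADIPOQ had medians of 28060 in fasted and 25861 in fed fat, against 45.7 in fasted and 48.7 in fed liver. Albumin (ALB) had medians of 41323 in fasted and 43596 in fed liver. Some fat arrays stood apart. In 4 fat arrays, of which 1 was fasted and 3 were fed, ALB read 7463 to 9507, against 90.3 to 341 in the other 20, and the summed signal of 15 hepatocyte markers was 21517 to 26002 against 4297 to 10697. The fat array of fed D298 replicate 1 deviated from its group towards the fasted arrays on 79.1% of the probe sets that differed with fasting in fat, against at most 68.4% for any other fed fat array. For the fat values described most closely, fits without these arrays are given beside the full fit. The summed signal of 9 skeletal muscle markers also varied widely in fat, from 245 to 127289, and no fit left arrays out by it.

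The level in fat against that in liver, averaged over genotype and feeding, was not used to choose the genes. Of the 10 probe sets, 9 differed between fat and liver (limma on log2 signals, 48 arrays, a random effect for the animal, adjusted p under 0.05 after Benjamini-Hochberg over 23999 probe sets). On the whole array 72.0% of probe sets passed the same test. Higher calls came to 2 of the 10 probe sets, against 46.9% of the array, and lower calls to 7, against 25.2%. The median probe set of the array lay 0.26 higher in fat, and this shift depends on scaling: it was 0.034 after quantile normalization and −0.10 with each array centred on its median. Of all calls on the array, 65.1% were higher in fat as deposited, 53.2% after quantile normalization and 45.3% after median centring.

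CYP2B22, a porcine cytochrome P450 of the drug-oxidizing 2B subfamily, was higher in fat than in liver on the average over feeding states. Its signal ran from 238 to 4607 with a median of 752 in fat, and from 94.9 to 3213 with a median of 333 in liver. The 2 ranges overlapped over most of their length. The difference of 0.93 ± 0.21, a 1.91-fold excess in fat (adjusted p = 8.73e-05), was 0.68 relative to the median probe set. With arrays matched by number, fat exceeded liver in 12 of 12 fasted and 3 of 12 fed gilts. The geometric mean was 1619.5 in fat against 234.5 in liver in fasted gilts. In fed gilts the order was reversed, at 434 in fat against 821 in liver. SULT1A3, a sulfotransferase of phenols and, in human, of catecholamines such as dopamine, had the same arrangement. It read 2403 to 13126 with a median of 6425 in fat, and 815 to 12599 with a median of 3258 in liver. Its difference was 0.83 ± 0.19 (1.78-fold, adjusted p = 0.000123), or 0.58 relative to the median probe set, with fat higher in 11 of 12 fasted and 4 of 12 fed gilts. Its geometric mean was 10082 in fat against 2727 in liver in fasted gilts, and 3196 against 3723 in fed gilts. On the average over feeding states both genes stayed higher in fat after quantile normalization, at 0.77 for CYP2B22 and 1.14 for SULT1A3. After median centring they were higher by 0.57 for CYP2B22 and 0.47 for SULT1A3. The RefSeq table used for names gives SULT1A1 as a synonym of SULT1A3, so reads of near-identical sulfotransferase copies cannot be assigned further.

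The other genes were lower in fat. SULT2A1, the hydroxysteroid sulfotransferase that acts on dehydroepiandrosterone and bile acids, read 59.7 to 672 (median 345) in fat and 9695 to 27218 (median 19148) in liver. Fat lay below liver in 24 of 24 gilts, with a difference of −5.82 ± 0.16 or 56.4-fold (adjusted p = 6.42e-34). EPHX1, the microsomal epoxide hydrolase that opens reactive epoxides made by P450s, read 501 to 2252 (median 1037) in fat and 6596 to 20318 (median 13795) in liver. Its difference was −3.62 ± 0.079, 12.3-fold lower in fat (adjusted p = 9.59e-38), and no fat array reached a liver array. FMO1, a flavin monooxygenase that oxidizes nitrogen and sulfur atoms of drugs, was bright in both tissues, at 2346 to 7268 (median 3877) in fat and 15792 to 23460 (median 20008) in liver. It was 4.90-fold lower in fat (−2.29 ± 0.055, adjusted p = 3.46e-36), again with no overlap.

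ABCB1 encodes P-glycoprotein, the multidrug efflux pump. Its probe set 1 read 55.2 to 238 (median 99.4) in fat and 663 to 1787 (median 1135) in liver, a difference of −3.44 ± 0.12 (10.8-fold lower in fat, adjusted p = 4.31e-30). Probe set 2 was also lower in fat in 24 of 24 gilts, with a difference of −2.88 ± 0.22 (adjusted p = 4.46e-16), which was −1.88 ± 0.10 with 32 added to each signal before taking logs. Probe set 3, dim in both tissues with medians of 36.3 in fat and 38.6 in liver, differed by −0.36 ± 0.24 (adjusted p = 0.179). That difference passed after quantile normalization (−0.63, adjusted p = 0.018) and after median centring (−0.73, adjusted p = 0.00796). CYP2C36, of the P450 2C subfamily, was close to the dimmest probe sets of the array in fat, with medians of 19.1 for probe set 1 and 3.00 for probe set 2, and read 283 and 42.3 in liver. The differences were −4.32 ± 0.33 for probe set 1 (adjusted p = 3.66e-16) and −3.51 ± 0.27 for probe set 2 (adjusted p = 4.55e-16). These sizes hang on the dim fat signals, which are not known to lie above background: with 32 added before logs they were −3.07 ± 0.25 for probe set 1 and −1.05 ± 0.081 for probe set 2. Without the 4 fat arrays that carry hepatocyte markers the difference of SULT2A1 was −5.92 ± 0.17, that of CYP2B22 was 0.98 ± 0.22 and that of SULT1A3 was 0.89 ± 0.21. The same fit gave −3.65 ± 0.081 for EPHX1, −2.27 ± 0.057 for FMO1, −3.40 ± 0.12 for ABCB1 probe set 1 and −4.32 ± 0.36 for CYP2C36 probe set 1. Without fed D298 replicate 1 the differences were 0.84 ± 0.19 for CYP2B22, 0.79 ± 0.19 for SULT1A3, −5.70 ± 0.12 for SULT2A1, −3.59 ± 0.075 for EPHX1 and −2.31 ± 0.054 for FMO1.

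**Figure D1:**
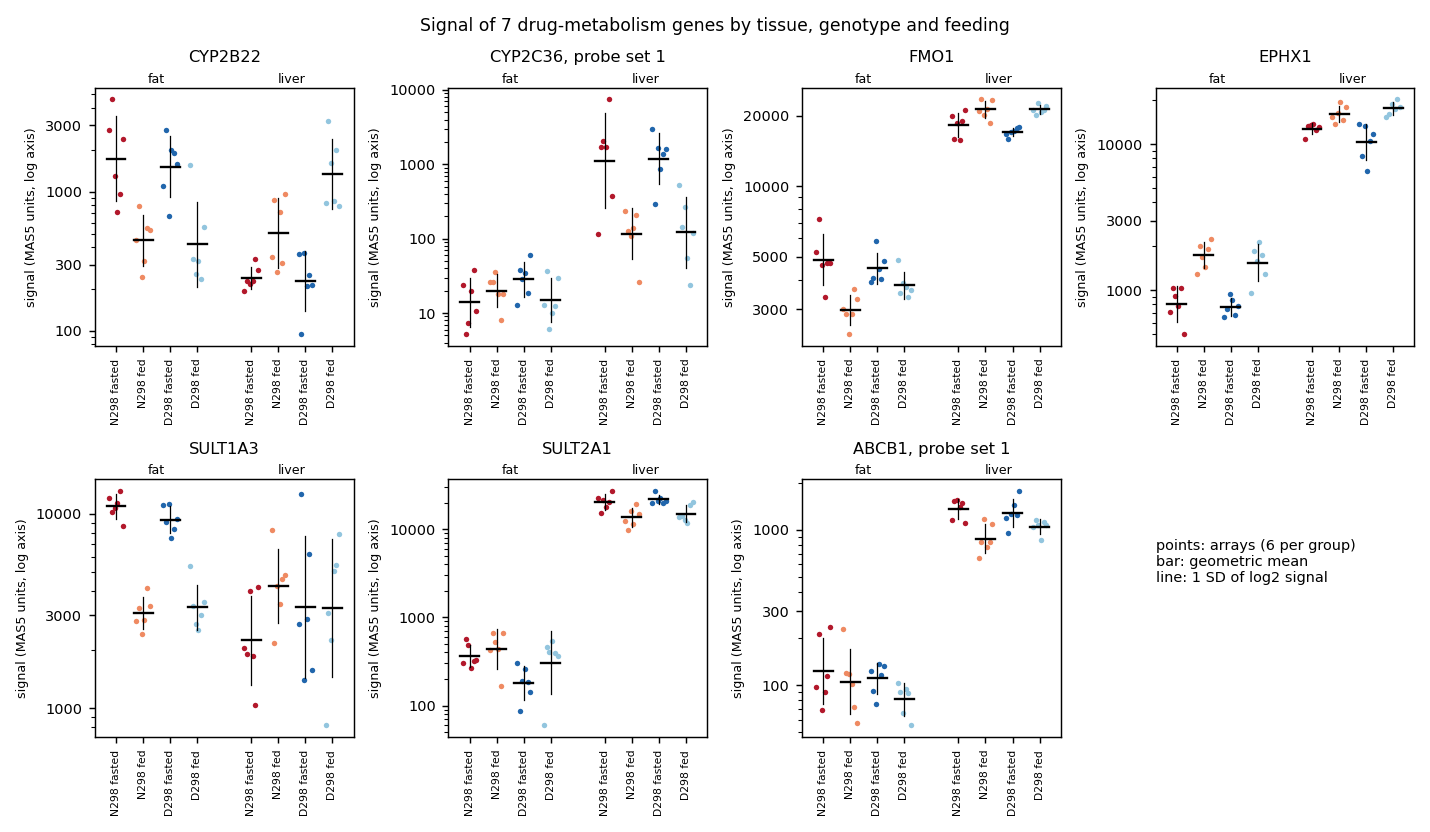
MAS5 signal (log axis) of the 7 genes in fat (left in each panel) and liver (right), by genotype and feeding state, with 1 point per array, a bar at the geometric mean and a line of 1 SD of the log2 signal. CYP2B22 and SULT1A3 have their highest fat signals in the fasted groups, EPHX1 its lowest signals in the fasted groups of both tissues, and SULT2A1, FMO1, EPHX1 and ABCB1 are separated between tissues.

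Fasting was the contrast by which the genes were chosen, and the values that follow describe them. On the whole array 25.2% of probe sets passed for fasting in fat (15.1% higher and 10.1% lower in fasted gilts) and 4.47% in liver (2.27% higher and 2.20% lower). The difference between the tissues passed for 16.1% (8.84% higher and 7.26% lower in fat minus liver). The median difference of responses (fat minus liver) over all probe sets was 0.12, and was 0.012 after quantile normalization and −0.024 after median centring.

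Among phase 1 oxidases, CYP2B22 had the widest opposition. In fat it read 672 at the lowest, 1738 at the median and 4607 at the highest in fasted gilts, against 238, 391 and 1544 in fed gilts. The fasted arrays were high, 7 of 12 of them above every fed array, and the single fed array at 1544 was D298 replicate 1, with the next highest fed array at 789. In liver the same gene read 94.9, 229 and 363 in fasted gilts, against 264, 844 and 3213 in fed gilts. Here the fasted arrays were low, 8 of 12 of them below every fed array. The log2 difference was 1.90 ± 0.26 in fat (3.73-fold higher in fasted gilts) and −1.81 ± 0.28 in liver (3.50-fold lower). The response in fat minus that in liver was 3.71 ± 0.41, or 3.59 relative to the median probe set. Leaving out fed D298 replicate 1 gave 2.08 ± 0.22 in fat, and leaving out the 4 arrays with hepatocyte markers gave 1.79 ± 0.31.

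FMO1 had the same signs with smaller steps. In fat it read 3377, 4674 and 7268 in fasted gilts, against 2346, 3433 and 4871 in fed gilts. The groups overlapped, with 3 of 12 fasted arrays above every fed array, and the highest fed array was again D298 replicate 1. In liver FMO1 read 15792, 17423 and 21075 in fasted gilts, against 18630, 21124 and 23460 in fed gilts. Of the fasted livers 9 of 12 lay below every fed liver. The log2 difference was 0.48 ± 0.10 in fat (1.39-fold higher) and −0.27 ± 0.060 in liver (1.21-fold lower), so that fat minus liver was 0.75 ± 0.11, or 0.63 relative to the median probe set. The fat difference was 0.51 ± 0.10 without fed D298 replicate 1 and 0.48 ± 0.12 without the 4 arrays with hepatocyte markers. At percentiles of 96.9 in fat and 99.3 in liver the gene sits among the brightest probe sets of the array.

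CYP2C36 was dim in fat, at the 14.5 percentile of the array for probe set 1 and the 0.725 percentile for probe set 2, so its liver values carry the description. Probe set 1 read 116, 1635 and 7467 in fasted livers, against 23.5, 135 and 530 in fed livers. Most fasted livers were high, 9 of 12 above every fed liver, and the difference was 3.27 ± 0.59 (9.68-fold higher). Probe set 2, the antisense design on the same sequence record, read 2.04, 40.8 and 48.9 in fasted livers, against 27.6, 55.0 and 106 in fed livers. It pointed the other way, at −1.02 ± 0.44 (2.02-fold lower), with 3 of 12 fasted livers below every fed liver. With 32 added before logs this difference was −0.42 ± 0.16. In fat probe set 1 read 5.22, 21.8 and 59.9 in fasted gilts, against 6.15, 18.0 and 36.9 in fed gilts, and the groups overlapped.

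EPHX1, the hydrolase, did not have opposed signs. In fat it read 501, 778 and 1041 in fasted gilts, against 960, 1719 and 2252 in fed gilts. Fasted arrays were low, with 10 of 12 below every fed array and no overlap within either genotype. In liver it read 6596, 12861 and 13741 in fasted gilts, against 13849, 16915 and 20318 in fed gilts, with no overlap. The log2 difference was −1.06 ± 0.11 in fat (2.08-fold lower) and −0.55 ± 0.099 in liver (1.47-fold lower). Fat minus liver was −0.50 ± 0.16, or −0.62 relative to the median probe set, a difference in size and not in sign. Without the 4 arrays with hepatocyte markers the fat difference was −0.90 ± 0.098, and without fed D298 replicate 1 it was −1.10 ± 0.11.

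Of the sulfotransferases, SULT1A3 separated the feeding states in fat. It read 7482, 10428 and 13126 in fasted fat, against 2403, 3149 and 5369 in fed fat, and no fasted array overlapped a fed one. The difference was 1.66 ± 0.10, or 3.15-fold, and 1.72 ± 0.093 without fed D298 replicate 1. In liver it read 1044, 2375 and 12599 in fasted gilts, against 815, 4419 and 8217 in fed gilts. The liver groups overlapped over nearly the whole range, and a single fasted D298 liver held the highest value. The liver difference of −0.45 ± 0.38 is close to its standard error and moved between −0.72 and −0.29 when 1 replicate number was left out in turn. It was −0.92 ± 0.54 in N298 and 0.022 ± 0.54 in D298, so the lower mean was that of N298. The medians were lower in fasted livers of both genotypes, at 1969 against 4419 in N298 and 2799 against 4085 in D298. In D298 the highest fasted liver read 12599 and the lowest fed liver 815. In fasted fat the gene was 3.53-fold higher in N298 and 2.82-fold higher in D298. The interaction with genotype in liver did not reach an unadjusted p under 0.05. Fat minus liver was 2.11 ± 0.38, or 1.99 relative to the median probe set.

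SULT2A1 was the gene with the reversed signs. In liver, where it is one of the brightest probe sets, it read 15062, 20814 and 27218 in fasted gilts, against 9695, 13992 and 20499 in fed gilts. Of the fasted livers 7 of 12 lay above every fed liver, and the difference was 0.56 ± 0.11 (1.47-fold higher). In fat it read 87.0, 284 and 564 in fasted gilts, against 59.7, 432 and 672 in fed gilts. Every fasted fat array fell inside the fed range, and the difference was −0.52 ± 0.30. The lowest fed array, at 59.7, was D298 replicate 1, and without it the fat difference was −0.77 ± 0.22. The arrays with hepatocyte markers read 184 for SULT2A1 in the fasted one and 526.3, 535 and 672 in the fed ones, against 59.7 to 657 in the other 20 fat arrays. Without those 4 the fat difference was −0.42 ± 0.37. Of those 4 arrays more were fed than fasted. Over all fat arrays the summed hepatocyte markers had the higher median in fasted gilts, at 8099, against 5596 in fed gilts. The single markers did not share that direction: their median fasting difference in fat was −0.37. Of the 15, 1 was called higher and 0 lower, against 15.1% and 10.1% of the array. APOA1, which is in the sum, differed by 0.70 ± 0.092, and ALB had medians of 203 in fasted and 191 in fed fat. The part of these markers in the SULT2A1 signal of fat was not tested beyond these values.

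ABCB1 was higher in fasted gilts in both tissues by probe set 1. In liver it read 956, 1337 and 1787 in fasted gilts, against 663, 1057 and 1176 in fed gilts. Of the fasted livers 9 of 12 lay above every fed liver, and the difference was 0.47 ± 0.098 (1.38-fold). In fat it read 69.4, 116 and 238 in fasted gilts, against 55.2, 92.2 and 229 in fed gilts, with overlap and a difference of 0.34 ± 0.22. Probe set 2 read 150, 204 and 352 in fasted livers, against 119, 179 and 289 in fed livers. It differed by 0.086 ± 0.45 in fat and 0.19 ± 0.18 in liver, and probe set 3 by −0.24 ± 0.41 in fat and −0.10 ± 0.28 in liver. None of these 4 values exceeded its own standard error by much, and that of probe set 3 in liver turned to 0.037 after quantile normalization.

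**Figure D2:**
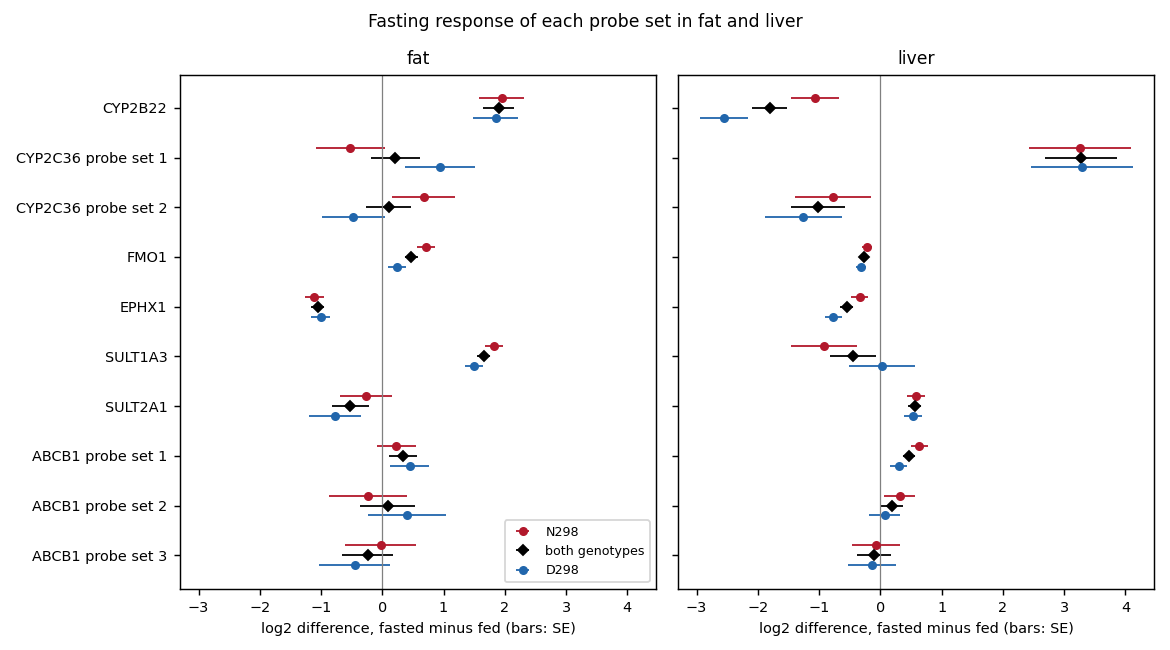
Log2 difference between fasted and fed gilts (fasted minus fed) for each of the 10 probe sets in fat (left) and liver (right), for N298 (red), both genotypes (black) and D298 (blue), with bars of 1 SE. CYP2B22 lies at 1.90 in fat and −1.81 in liver over both genotypes, and the 2 probe sets of CYP2C36 lie at 3.27 and −1.02 in liver.

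Some readings of other cell types, and a reading of RNA quality in fat, differed between feeding states beside these genes. Endothelial marker genes summed to 15635 to 26572 in fasted fat and 11552 to 17693 in fed fat. Of the 10 markers, each read by its brightest probe set, 6 were called higher. On the whole array 15.1% were called higher, and 3395 of the 11999 brighter probe sets. Fibroblast markers summed to 23837 to 44318 in fasted fat, against 34216 to 54718 in fed fat, and to 5643 to 8946 in fasted liver, against 8257 to 13909 in fed liver. Of the 7 fibroblast markers 1 was called higher and 3 lower in fat, and 1 was called lower in liver. On the whole array 10.1% were called lower in fat and 2.20% in liver. Of the 11999 brighter probe sets 2220 were called lower in fat and 626 in liver. The 3′ to 5′ ratio of the GAPDH control probe sets, a measure of RNA integrity, had a log2 median of 1.82 in fasted fat and 1.22 in fed fat, against 1.01 in fasted and 0.972 in fed liver. For the actin control probe sets the medians lay close together in fat, at 1.73 in fasted and 1.66 in fed gilts. In liver they were 1.72 in fasted and 1.49 in fed gilts. Skeletal muscle markers summed to 297.5 to 127289 in fasted fat and to 245 to 83971 in fed fat, with wide overlap and 0 of 9 markers called. The part of these in the values of the 7 genes was not tested.

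Whether the MC4R variant altered the level of these genes, or their response to fasting, was tested per tissue (limma with 4 groups and the replicate number as a block, adjusted over 23999 probe sets). None of the 10 probe sets passed in any of these tests, and none on the whole array did (0%). At an unadjusted p under 0.05 the array held 1321 probe sets for genotype in fat and 1212 in liver, and 1368 in fat and 1390 in liver for the interaction with fasting. Among the 7 genes SULT2A1 reached that level for genotype in fat, CYP2B22 in liver, FMO1 for the interaction in fat, and CYP2B22 and EPHX1 for the interaction in liver.

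CYP2B22 in fed liver had the largest genotype difference within a feeding state among the 10 probe sets. It read 264, 527 and 968 in fed N298 livers at the lowest, median and highest, against 787, 1228 and 3213 in fed D298 livers. The N298 livers were low, 4 of 6 of them below every D298 liver. In fasted livers the genotypes overlapped, at 195, 229 and 326 in N298, against 94.9, 232 and 363 in D298. The genotype difference (N298 minus D298) was −1.41 ± 0.40 in fed liver, 2.65-fold lower, with a 95% interval of −2.23 to −0.58 (limma, adjusted p = 0.932). Within fed liver 1225 probe sets of the array had an unadjusted p under 0.05 for genotype. The CYP2B22 difference was 0.082 ± 0.40 in fasted liver. The fasting difference in liver was −1.07 ± 0.40 in N298 and −2.55 in D298, and the interaction was 1.49 ± 0.56 with an interval of 0.32 to 2.65 (limma, adjusted p = 0.850). Leaving out each replicate number in turn kept the interaction between 1.15 and 1.77. In fat the fasting differences of the genotypes lay side by side, at 1.95 ± 0.36 in N298 and 1.85 in D298.

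SULT2A1 was 0.77 ± 0.30 higher in N298 fat averaged over both feeding states, with a 95% interval of 0.13 to 1.40 (limma, adjusted p = 0.862). In fasted fat it read 267, 327 and 564 in N298 gilts, against 87.0, 186 and 306 in D298 gilts, and 4 of 6 N298 arrays lay above every D298 array. In fed fat it read 165, 484 and 672 in N298 gilts, against 59.7, 399 and 535 in D298 gilts, with overlap. Without fed D298 replicate 1 the difference was 0.51 ± 0.22, and without the arrays with hepatocyte markers it was 0.80 ± 0.37.

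FMO1 differed by −0.35 ± 0.15 between N298 and D298 in fed fat (limma, adjusted p = 0.998), and by −0.28 ± 0.15 without fed D298 replicate 1 and −0.23 ± 0.18 without the arrays with hepatocyte markers. It read 2346, 2919 and 3669 in fed N298 fat, against 3362, 3668 and 4871 in fed D298 fat, and 5 of 6 N298 arrays lay below every D298 array. Its fasting difference in fat was 0.71 ± 0.15 in N298 and 0.24 in D298, an interaction of 0.47 ± 0.21 (limma, adjusted p = 0.852) that was 0.40 ± 0.21 without fed D298 replicate 1 and 0.32 ± 0.24 without the arrays with hepatocyte markers. EPHX1 in liver had an interaction of 0.43 ± 0.20 (limma, adjusted p = 0.850). Fasted N298 livers read 10810, 13302 and 13723, against 6596, 11146 and 13741 in fasted D298 livers, and its fasting difference was −0.34 ± 0.14 in N298 and −0.77 in D298. SULT1A3, CYP2C36 and ABCB1 did not reach an unadjusted p under 0.05 for the overall genotype effect or the interaction in either tissue. For CYP2C36 probe set 1 the liver fasting differences were 3.26 ± 0.83 in N298 and 3.29 in D298.

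Genes with several probe sets allow a check of the measurement itself. After removing the mean of each of the 4 groups, the 2 probe sets of CYP2C36 varied together over the 24 livers, with Pearson's r of 0.624 (permutation within groups, p = 0.0026, adjusted over 8 such pairs to 0.0208). Spearman's rho was 0.37 and did not pass (permutation, adjusted p = 0.189). Pearson's r was 0.497 without the 2 arrays farthest from the median of probe set 1. The same 2 fasted livers were lowest among the fasted on both probe sets. N298 replicate 1 read 116 on probe set 1 and 4.42 on probe set 2, and D298 replicate 2 read 294 on probe set 1 and 2.04 on probe set 2. No r was taken without both of these livers, so how far the joint variation rests on them was not tested. The fasting differences of the 2 probe sets in liver had opposite signs. In fat, where both are dim, r was −0.118 (adjusted p = 0.815, permutation). A further probe set, shared by CYP2C36 and 3 other CYP2C genes, read 6652 to 27917 in fasted livers with a median of 19169, against 12398 to 23682 in fed livers with a median of 19407, a difference of −0.049 ± 0.15.

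For ABCB1, probe sets 1 and 2 had r of 0.553 in fat (permutation, adjusted p = 0.145) and 0.453 in liver (adjusted p = 0.168), which did not pass. In fat r fell to 0.382 without the 2 farthest arrays, and with 32 added to each signal before taking logs it was 0.617 (adjusted p = 0.0444). Probe set 3 followed neither of the others, with r between −0.218 and 0.00617 over the 4 pairs. Probe sets 2 and 3 come from the same sequence record, and probe set 1 from another record. At mean-signal percentiles of 87.5 in liver for probe set 1, 57.8 for probe set 2 and 27.3 for probe set 3, the readings of ABCB1 rest on probe sets of unequal brightness.

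**Figure D3:**
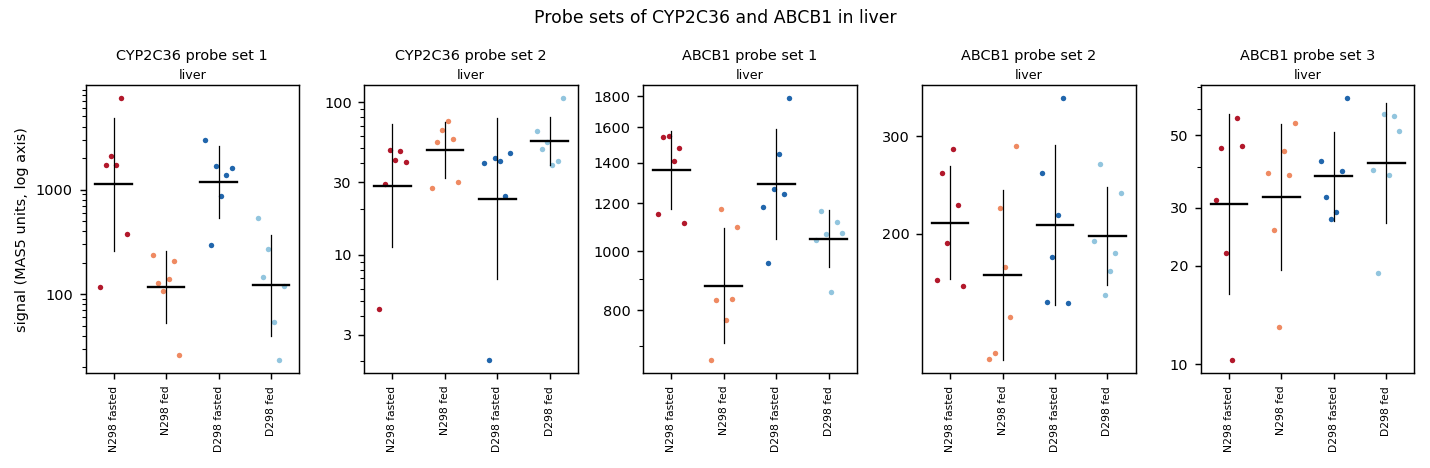
Liver signal (log axis, MAS5 units) on the 2 probe sets of CYP2C36 and the 3 of ABCB1 by genotype and feeding, with 1 point per array, a bar at the geometric mean and a line of 1 SD of the log2 signal. The lowest fasted livers on both CYP2C36 probe sets are N298 replicate 1 and D298 replicate 2.

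The named genes whose profiles ran closest to each member were found by correlation over the 48 arrays after centring each tissue, which holds the shared feeding contrast and array effects, and are given as a description. For CYP2B22 they were ANPEP (r = 0.769), an aminopeptidase, and LIMS2 (r = 0.733), an adaptor of focal adhesions. ANPEP differed with fasting by 0.50 ± 0.16 in fat and −0.80 ± 0.084 in liver, and LIMS2 by 0.93 ± 0.10 in fat and −0.43 ± 0.13 in liver. For EPHX1 they were ALDH1L1 (r = 0.844), a folate enzyme, and ACSS2 (r = 0.835), which makes acetyl-CoA for lipid synthesis. For CYP2C36 they were PC (r = 0.688), pyruvate carboxylase of gluconeogenesis, and LDHB (r = 0.675), a lactate dehydrogenase subunit, both through liver, where r was 0.766 for PC and 0.743 for LDHB. FMO1 ran with APOA1 (r = 0.772), an apolipoprotein of HDL, and SCARB1 (r = 0.747), the HDL receptor. Both did so more in fat, where r was 0.828 for APOA1 and 0.86 for SCARB1, against 0.472 and 0.295 in liver. APOA1 is also one of the hepatocyte markers summed above. SULT1A3 ran with COPS2 (r = 0.691), a subunit of the COP9 signalosome, and TIMP2 (r = 0.672), an inhibitor of matrix metalloproteinases. In fat r was 0.859 for COPS2 and 0.812 for TIMP2, against 0.584 and 0.535 in liver. SULT2A1 ran with SLC25A33 (r = 0.704), a mitochondrial pyrimidine nucleotide carrier, and SDHB (r = 0.672), a succinate dehydrogenase subunit. The closest for ABCB1 was DHRS4 (r = 0.538), a carbonyl reductase.

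The rest of the pathway was followed over 75 measured genes of 129 listed, without the 7. In fat 9 rose and 16 fell with fasting, with a median of −0.075, and in liver 3 rose and 6 fell, with a median of −0.098 (limma, adjusted p under 0.05, against 25.2% of the array called in fat and 4.47% in liver). Each gene was read by its brightest probe set, whereas these array shares count every probe set. Fits to the 11999 brighter probe sets alone called 3395 higher and 2220 lower in fat, and 705 higher and 626 lower in liver. Among 21 oxidation genes 1 rose and 4 fell in fat, and 2 rose and 1 fell in liver. POR, the reductase that feeds electrons to all microsomal P450s, fell by 0.65 ± 0.11 in fat, and CYP2D25 rose by 0.25 ± 0.071. Of 12 hydrolysis and reduction genes 1 rose and 6 fell in fat, and 1 rose and 3 fell in liver. NQO1, a quinone reductase, fell by 0.73 ± 0.15 in fat, and the carboxylesterase CES3 fell by 0.62 ± 0.12 in liver. Of 14 conjugation genes 1 rose and 4 fell in fat and 1 fell in liver, where the glutathione transferase GSTO1 fell by 0.83 ± 0.079 in fat and GSTA1 fell by 0.39 ± 0.086 in liver. Of 7 transporters 2 rose in fat, SLC22A3 (an organic cation transporter) by 0.84 ± 0.10 and ABCC6 by 0.59 ± 0.16, and none was called in liver. Of 21 regulators 4 rose and 2 fell in fat, among them the glucocorticoid receptor NR3C1, which rose by 0.49 ± 0.13, and 1 fell in liver, FOXA2, which fell by 0.62 ± 0.17. The call of FOXA2 was lost in 7 of 13 alternatives, that of CYP2D25 in 2 of 15, that of ABCC6 in 1 of 14, that of NR3C1 in 1 of 15 and that of GSTA1 in 1 of 13.

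Of the 75 genes 4 were called in both tissues, 1 with opposite signs and 3 with the same sign. On the whole array 1.93% of probe sets were called in both, 0.733% with opposite signs and 1.20% with the same sign. No share among brighter probe sets was taken for calls in both tissues. CYB5A, the cytochrome b5 that supports P450 reactions, was opposed in sign, at −0.54 ± 0.088 in fat and 0.25 ± 0.062 in liver. Its liver call (adjusted p = 0.0187) was lost in 4 of 13 alternatives, where the adjusted p reached 0.122. The other 3 had one sign. ALDH1A1 fell by 0.84 in fat and fell by 0.27 in liver (a liver call lost in 7 of 13 alternatives), AKR1A1 fell by 0.44 in fat and fell by 0.38 in liver, and DHRS4 rose by 0.63 in fat and 1.60 in liver. The difference between the tissues passed for 17 genes, 7 higher and 10 lower in fat minus liver, against 16.1% of the array. Among the 11999 brighter probe sets 2126 were called higher and 1885 lower. PXR (NR1I2), a regulator of many of these genes, had liver medians of 713 in fasted and 771 in fed gilts and was dim in fat, at 15.8 in fasted and 8.73 in fed gilts. In tissue level 19 of the 75 were higher and 52 lower in fat, against 46.9% higher and 25.2% lower on the array. Of the 11999 brighter probe sets 6603 were called higher and 3806 lower in fat. For genotype and its interaction with fasting no gene of the lists was called.

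**Figure D4:**
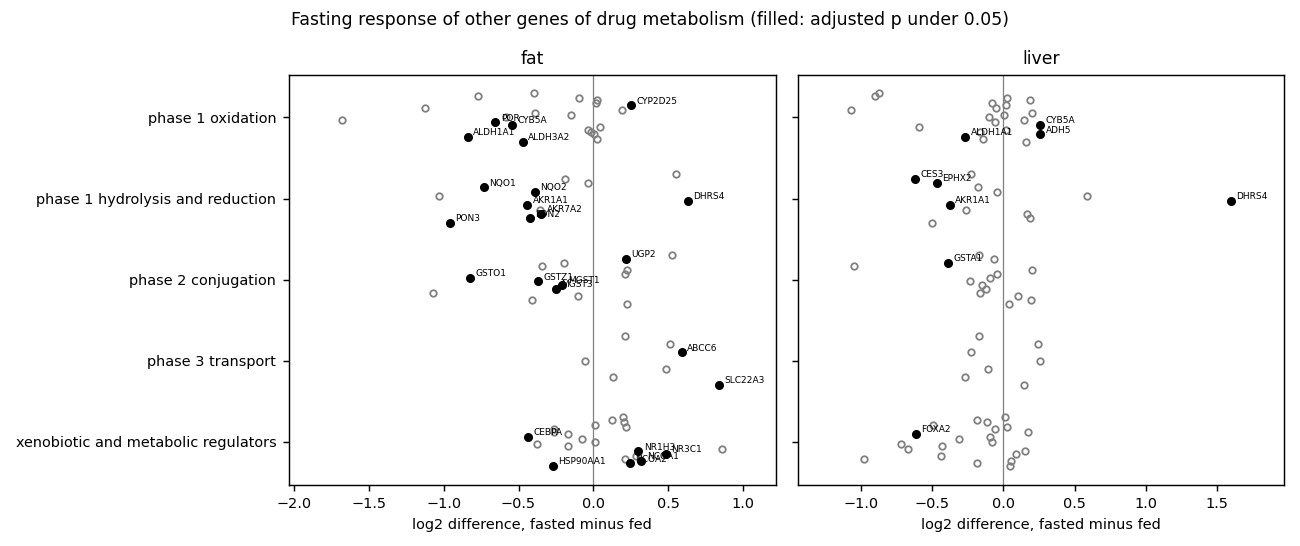
Fasting response (log2 difference, fasted minus fed, x axis) of the 75 other genes of drug metabolism in fat (left) and liver (right), with 1 point per gene, in a row for each of the 5 lists and filled where the adjusted p was under 0.05. CYB5A lies at −0.54 in fat and 0.25 in liver, and DHRS4 at 0.63 in fat and 1.60 in liver.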

How the data were processed

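RNA of fat and liver from 24 gilts was measured on 48 one-colour Affymetrix porcine arrays. Per the submitters' processing notes the affy package and MAS5 were used, and the deposited values are linear intensity signals, 1 per probe set, scaled by the authors so that each array's 2% trimmed mean was 500.1 to 500.2. No versions are given in the sources used here. Of 24123 probe sets 124 controls were left out, 10069 of the 23999 tested carry 1 gene symbol, 198 several and 13732 none, and all 10 probe sets of the 7 genes matched the RefSeq table by gene ID. No array was a copy of another and no column of values went unused.

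Log2 signals were fitted with limma 3.58.1 (R 4.3.3), with no filter on dim probe sets: per tissue, 4 groups with the replicate number as a block and a mean-variance trend, and for fat against liver all 48 arrays with the gilt (genotype, feeding and replicate number shared by a fat and a liver array) as a random block. Adjusted p-values are Benjamini-Hochberg over 23999 probe sets, called under 0.05. The number of arrays limits the precision. Probe set pairs were tested by 100000 permutations within groups. The 7 genes and the gene lists were chosen with earlier results of these data known. In the lists, up to 4 called genes per list and direction could be named, by adjusted p, and 2 genes nearest in profile to each member. Alternatives were scaling (quantile, median-centred), 32 added before logs, brighter probe sets only, no trend, array weights, no block, each replicate number left out, and 2 sets of fat arrays left out. The fits were tested on simulated data. Python 3.11.15, NumPy 2.4.6, pandas 2.3.3, SciPy 1.17.1 and Matplotlib 3.10.9 were used for the rest.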

Additional observations from a re-analysis of the deposited data

Results flagged for a closer look

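In 11 of 80 groups of 6 arrays, 1 array lay far from the other 5 by Dixon's criterion at 95%, where chance flags about 1 group in 20. FMO1 in fat of fed D298 replicate 1 read 4871, against 3362 to 3858 in the other 5. SULT2A1 in the same array read 59.66, against 360.1 to 535.1, and SULT2A1 in fat of fed N298 replicate 5 read 165.2, against 423.2 to 671.9. EPHX1 in liver of fasted N298 replicate 1 read 10810, against 12561 to 13723.

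CYP2C36 supplied 4 of the 11. Probe set 1 in liver of fed N298 replicate 6 read 26.51, against 108.1 to 236.7. Probe set 2 in liver of fasted D298 replicate 2 read 2.044, against 24.38 to 46.49, and in liver of fasted N298 replicate 1 it read 4.424, against 29.36 to 48.93. In fat of fed N298 replicate 2, probe set 2 read 1.287, against 2.584 to 3.418.

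ABCB1 supplied 3. Probe set 1 in liver of fed D298 replicate 4 read 856.8, against 1043 to 1164. Probe set 2 in fat of fed N298 replicate 6 read 3.081, against 23.07 to 50.39, and probe set 3 in fat of fasted N298 replicate 2 read 3.533, against 22.53 to 40.56.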

How the results depend on the processing

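The values of the 7 genes kept their direction in 1169 of 1222 alternative values, 51 others moved without being called, and 2, the fat to liver difference of ABCB1 probe set 3 after quantile normalization and after median centring, passed where the value as reported did not. The labels give a complete block design but do not say that the replicate number is the block, and arrays with the same number did not deviate together (mean correlation per number −0.00559 to 0.0674 in fat and −0.0101 to 0.0163 in liver). Without the replicate block 1 probe set was called for genotype in liver, where the fit with it called 0. Leaving out each replicate number in turn gave 0 to 2 calls for genotype in liver, 0 to 4 for the interaction in fat and 667 to 901 for the fasting response in liver (fewest without replicate 3), against 1073 with all arrays. Leaving out fat of fed D298 replicate 1, chosen after seeing the data, gave 5 calls for the interaction in fat. With brighter probe sets only, the fat to liver difference was called for 10409 of the 11999 tested, against 17291 of 23999 in the full fit. After median centring the tissue difference of PON2 was −0.059, reversed in sign. The causes were not tested. Of the calls on fasting, higher ones made up 60.1% in fat and 50.8% in liver as deposited, 52.4% in fat and 53.6% in liver after quantile normalization, and 43.2% in fat and 68.1% in liver after median centring. For the difference between tissues they made up 54.9% as deposited, 45.0% after quantile normalization and 28.0% after median centring. Of 81 calls on named pathway genes 28 were lost in some alternative, among them 24 of 49 on fasting or on the difference between tissues, such as UGP2 in fat (8 of 15 alternatives), NCOA2 in fat (10 of 15) and FOXA2 in liver (7 of 13). No detection calls were used here, so whether dim signals (CYP2C36 in fat, ABCB1 probe set 3) lie above background is not known.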

Other observations

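The 7 genes were also compared with each other within groups, over 49 pairs of probe sets and tissues. None passed after adjustment, with a lowest adjusted p of 0.235 (permutation within groups). The pairs with the largest correlations by size were SULT1A3 with SULT2A1 in fat (r = −0.606, and −0.143 without the 2 arrays farthest from the median), CYP2B22 with FMO1 in fat (r = 0.532, and 0.263 without 2), CYP2C36 probe set 1 with SULT1A3 in liver (r = −0.513) and SULT1A3 in fat with SULT1A3 in the liver array of the same number (r = −0.508).

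The probe set shared by 4 CYP2C genes differed between fat and liver by −11.4 ± 0.37 on the log2 scale, the sign meaning lower in fat. Its fat signal had a median of 4.09, and the difference was −8.72 ± 0.13 with 32 added before logs and −12.0 ± 0.30 without the 4 fat arrays with hepatocyte markers. In the 4 fat arrays with hepatocyte markers it read 48.3 to 78.1, against 1.34 to 36.0 in the other 20.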
